A study of Homo sapiens with 43 samples.

Results

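The sense-intronic class of GENCODE release 29 holds noncoding transcripts annotated inside an intron of another gene, on the same strand and without sharing its exons. The RNA-seq count table held 888 rows of this class among 58347 rows that name a gene. The 437 rows described here had at least 10 counts in 2 or more of the 10 RNA-seq libraries. Of the other sense-intronic rows, 189 had no count in any library. The second highest count was exactly 10 in 20 of the 437 rows, and it was 9 in 14 rows left out. Because every library counted towards that minimum, 40 of the 437 rows met it only with the help of the induced S34F libraries.

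The libraries came from HEL cells, a human erythroleukemia line, that carried a doxycycline-inducible U2AF1 transgene, either wild type (WT), S34F or Q157R. The 6 groups were WT, S34F and Q157R cells without induction (2, 1 and 1 libraries) and the same lines after 48 hours with doxycycline at 1 µg/ml (2 libraries each). All groups kept their own U2AF1 genes, and the labels do not say whether each line was 1 clone. CLIP libraries were made from induced cells only. U2AF1 RNA stood at 19.1 and 11.002 counts per 1000000 gene counts (CPM) in induced WT, 18.0 and 19.4 in induced S34F and 21.5 and 15.1 in induced Q157R cells. Without doxycycline it stood at 13.4 and 12.6 CPM in WT, 21.2 in S34F and 22.1 in Q157R cells, so the U2AF1 counts do not show the labelled induction in S34F and Q157R cells and overlap in WT cells. Gene counts cannot show which allele was expressed. Whether this row captures reads of the transgene was not tested, so its counts do not tell whether the transgene was induced. The word "induced" below is as the libraries are labelled.

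Introns are normally removed from the primary transcript and destroyed in the nucleus, so RNA from inside an intron is a small part of the RNA of a cell. U2AF1 binds the AG at the 3' end of introns and U2AF2 the pyrimidine-rich stretch before it, and together they start 3' splice site recognition. Reads on a sense-intronic row may come from a transcript of its own or from unspliced RNA of the host gene, and in counts per row these cannot be told apart.

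Of the 437 rows, 418 lay inside a host gene, 402 of them inside a protein-coding one, and 410 inside a single intron of the merged exon model. The median length of exons was 611 bases per row (161 to 13454), and 240 rows had 1 exon. The intron around a row had a median length of 13498 bases, and 65 rows lay in the first intron of their host. In all, 368 genes served as hosts, and 37 of them held 2 or more rows (87 rows in all), so these rows are not independent of each other. Exons of another gene overlapped the row on the opposite strand in 29 cases and on the same strand in 18.

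The sequences below come from 4 of the 6 rows that were called higher in induced S34F cells, where they show what the RNA of these rows is made of. Each is a stretch of 120 bases around the longest pyrimidine run of the annotated GENCODE transcript, 5′ to 3′, with that run in capitals. On GRCh38 the stretches lie at chr17:61384504-61384623 (plus strand) for AC005746.1, chr16:21627092-21627211 (plus) for AC005632.2, chr12:79818936-79819055 (minus) for AC073569.3 and chr20:47348999-47349118 (minus) for AL031666.3.
AC005746.1: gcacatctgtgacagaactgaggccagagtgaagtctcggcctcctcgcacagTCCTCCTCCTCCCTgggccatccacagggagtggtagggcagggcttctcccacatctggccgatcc
AC005632.2: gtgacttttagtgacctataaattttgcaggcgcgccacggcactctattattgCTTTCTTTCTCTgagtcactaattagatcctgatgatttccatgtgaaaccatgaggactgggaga
AC073569.3: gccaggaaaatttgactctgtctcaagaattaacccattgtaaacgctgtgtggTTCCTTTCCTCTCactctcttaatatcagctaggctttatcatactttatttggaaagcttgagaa
AL031666.3: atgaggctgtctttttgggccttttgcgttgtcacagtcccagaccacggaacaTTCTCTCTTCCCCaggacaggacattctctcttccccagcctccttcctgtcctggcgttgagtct
The longest runs of these 4 transcripts were 14, 12, 13 and 13 bases, beside a median of 11 (4 to 130) over all 437 rows. Runs as long as these occurred in 32.0%, 47.8%, 38.0% and 38.0% of the 437 transcripts. In the other called rows, AC020978.1 and AL133243.3, the longest runs were 6 and 21 bases, and 98.9% and 8.92% had one as long. In AL031666.3 another run of the same length follows in lower case. Runs of at least 10 bases made only of C and T, read on the transcript strand, occurred in 19.9% of 3491 windows of 120 bases from the sense-intronic transcripts. The share was 17.8% of 128476 windows from lincRNA and antisense transcripts and 16.3% of 529248 windows from protein-coding transcripts. The sense-intronic transcripts were lower in GC, with a median of 42.0% beside 46.4% for lincRNA and antisense transcripts.

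The next 3 stretches, printed the same way, come from the rows with the most CLIP counts, which were chosen after their values were seen. They lie at chr2:37210979-37211098 (plus strand) for AC007390.2, chr12:32737054-32737173 (minus) for AC084824.4 and chr19:57867038-57867157 (minus) for AC010326.3.
AC007390.2: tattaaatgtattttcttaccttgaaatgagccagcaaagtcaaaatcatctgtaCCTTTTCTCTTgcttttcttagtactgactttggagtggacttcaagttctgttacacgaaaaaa
AC084824.4: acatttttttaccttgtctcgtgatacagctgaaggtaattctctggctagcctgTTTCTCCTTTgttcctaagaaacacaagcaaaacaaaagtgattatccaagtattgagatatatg
AC010326.3: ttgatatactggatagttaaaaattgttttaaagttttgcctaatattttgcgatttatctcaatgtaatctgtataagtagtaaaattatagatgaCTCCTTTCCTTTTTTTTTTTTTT
Their longest runs had 11, 10 and 23 bases, and 5.72% of the 437 transcripts had a run as long as that of AC010326.3. The run of AC010326.3 lies at the end of its stretch.

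The RNA-seq libraries held 22392303 to 40370092 counts on genes. Sense-intronic rows took a small share of them, and without induction it was 0.0538% and 0.0552% in WT, 0.0591% in S34F and 0.0588% in Q157R cells. The 2 induced S34F libraries stood apart, at 0.106% and 0.110%, above each of the other 8. Induced WT cells were at 0.0627% and 0.0616% and induced Q157R cells at 0.0689% and 0.0748%. The mean was 1.73 times higher in induced S34F (0.108% ± 0.00262, SD, n = 2) than in induced WT cells (0.0621% ± 0.000813, n = 2), and 1.72 times without the 40 rows that needed the induced S34F libraries.

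Reads that the counting assigned to no feature are called unannotated below. They may include reads from introns of annotated genes, and how many is not given by the counts. Their share moved with that of the sense-intronic rows. It was 22.7% and 22.7% in induced WT, 33.7% and 33.5% in induced S34F and 23.2% and 27.0% in induced Q157R cells, and 19.0% to 20.6% in the 4 uninduced libraries. Set against those unannotated reads, the sense-intronic rows had 1409 ± 96.7 counts per 1000000 unannotated reads in induced WT and 1409 ± 27.9 in induced S34F cells (SD, n = 2 each). The values in the other groups were 1471 ± 128 in induced Q157R (n = 2), 1564 ± 98.3 in uninduced WT (n = 2), and 1572 and 1578 in the single uninduced S34F and Q157R libraries. The ratio to unannotated reads was therefore no higher in the induced S34F libraries than in the others. In bulk RNA, fewer cells with a transcript and less of it per cell cannot be told apart.

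**Figure D1:**
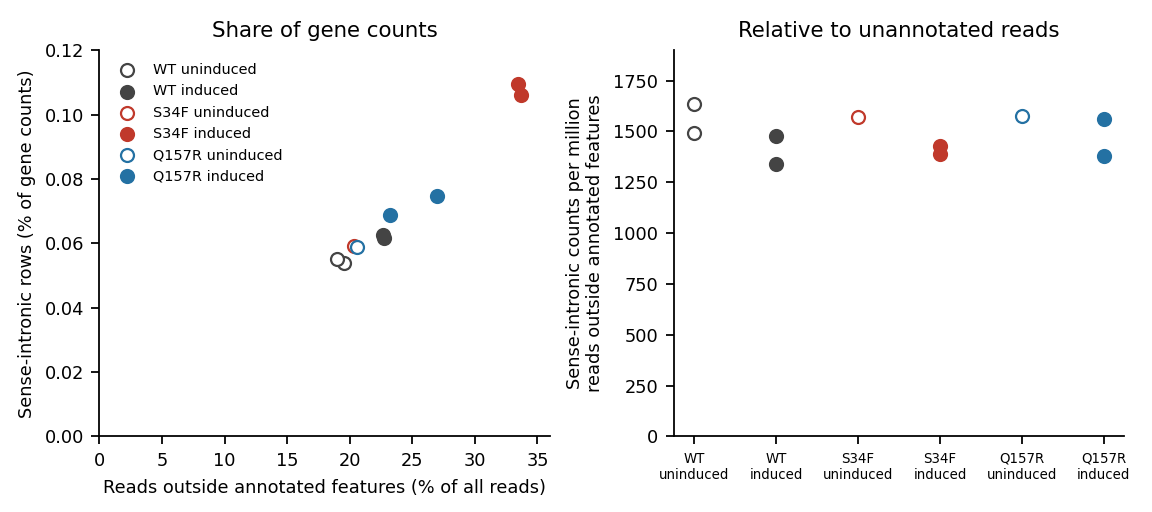
Left, the percent of gene counts on sense-intronic rows against the percent of all reads outside annotated features, 1 point per RNA-seq library; right, sense-intronic counts per 1000000 unannotated reads by group. The 2 induced S34F libraries lie apart at 33.5% and 33.7% unannotated reads on the left, and at 1389 and 1428 on the right they fall among the other induced libraries.

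Most sense-intronic rows were low. The median row averaged 0.744 CPM over the 10 libraries (0.148 to 20.2), 171 rows reached 1 CPM and 12 reached 10 CPM. Per kilobase of exon, the median row stood at 13.1% of its host in induced WT and at 23.3% in induced S34F cells (411 rows whose host had counts), and 61 rows stood above their host in induced WT cells.

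The 12 most abundant rows did not move together. AC087481.3, inside FAN1, a nuclease gene of DNA crosslink repair, led with 20.9 and 13.5 CPM in induced WT, 18.8 and 19.1 in induced S34F and 33.9 and 23.4 in induced Q157R cells, so the WT and S34F libraries overlapped. N4BP2L2-IT2, inside N4BP2L2, was at 6.08 and 11.7 CPM in induced WT and 20.04 and 26.8 in induced S34F cells, without overlap. It differed by 1.40 ± 0.44 (log2, SE; edgeR's quasi-likelihood test, adjusted p = 0.119), and it passed with the replicate number as a block (adjusted p = 0.00117 in edgeR; 0.00117 to 0.38 over the settings tried). AC015871.3, inside ST20, was at 15.02 and 12.7 CPM in induced WT and 29.3 and 23.2 in induced S34F cells (log2 0.92 ± 0.21; edgeR adjusted p = 0.0657, 0.0034 with the block).

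Other abundant rows varied widely between libraries of 1 group. AC006538.1 stood at 8.23 and 34.5 CPM in the 2 uninduced WT libraries. SOS1-IT1, inside the RAS activator gene SOS1, was at 13.9 and 21.2 CPM in induced WT cells and at 16.3 and 13.2 CPM with S34F. AC037198.1, inside the thrombospondin gene THBS1, ranged from 3.35 to 22.9 CPM while THBS1 ranged from 1001 to 3912 CPM. MIR600HG, AC010186.3, AC124312.5, AC127502.2 and ANKRD10-IT1, with means of 10.0 to 15.5 CPM, differed by -0.23 to 0.61 (log2) between induced S34F and WT cells. None of these 5 was called by edgeR, and with the block AC010186.3 was (adjusted p = 0.0343 in edgeR with the block, 0.0343 to 0.814 over the settings tried).

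Between induced S34F and induced WT cells, most sense-intronic rows had fold changes above 0. Of 436 rows tested (KIRREL1-IT1 fell below the filter), 376 had a fold change above 0, or 86.2%, beside 50.0% of all 21300 rows of the table. The median log2 fold change was 0.69, beside 0.00 over all rows. edgeR's quasi-likelihood test called 6 rows higher and 0 lower at an adjusted p below 0.05, which is 1.38% of the 436, beside 0.681% of all rows called higher, 0.991% called lower and 1.67% in either direction. With the replicate number as a block it called 83 higher and 2 lower, beside 9.56% and 12.9% of all rows and 22.4% in either direction. Of these, 1 of the 6 and 11 of the 83 had met the count minimum only with the induced S34F libraries, where they had to be high. Both libraries of induced S34F cells stood above both of induced WT cells in 246 rows (56.4%, beside 28.9% of all rows) and below them in 18 (4.13%, beside 27.3%). All 40 rows that needed the induced S34F libraries for the count minimum had fold changes above 0. Without them 84.8% of 396 rows were above 0. How many of the 246 needed those libraries was not counted.

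The median was also above 0 in each subset of rows described. It was 0.60 without the 40 rows that needed the induced S34F libraries, 0.57 in the more abundant part of the rows (218 rows), 0.71 with 1 row per host and 0.69 without rows that overlap other exons. Rows in the first intron (64 tested) had a median of 0.68 and those in later introns (345) one of 0.72. Set against their hosts, as described below, the medians were 0.39 (59 rows) and 0.72 (336 rows). Short and long introns differed little, at 0.69 and 0.74. Of the 6 called rows, 0 remained called when any 1 of the 4 libraries was left out or when only the 2 groups were fitted (highest adjusted p 0.359), so each call rests on all 4 libraries.

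Other noncoding classes had medians above 0 too. In the same comparison the median was 0.63 over 359 rows to be experimentally verified (TEC), 0.77 over 219 misc_RNA rows, 0.44 over 1555 lincRNAs and 0.37 over 1656 antisense rows, and -0.16 over 13602 protein-coding genes.

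AL133243.3 had the lowest adjusted p among these rows. It is a 1-exon row of 3004 bases on chromosome 2 (chr2:32526504-32529507), in intron 60 of 75 of BIRC6, a giant ubiquitin-conjugating inhibitor of cell death, and it ends 143 bases before that intron does. With induction its level was 24.8 and 24.0 CPM in S34F cells, against 6.18 and 4.64 in WT and 4.39 and 5.40 in Q157R. Before induction the 4 libraries were at 3.21 and 2.68 (WT), 2.83 (S34F) and 3.02 CPM (Q157R). The 2 induced S34F libraries were far above the other 8. The log2 difference from induced WT was 2.17 ± 0.26 (SE; edgeR, adjusted p = 0.0409), or 4.50-fold. BIRC6 itself was level, at 489 and 442 CPM in induced WT and 468 and 453 in induced S34F cells (log2 -0.01 ± 0.16). Per kilobase the row went from 6.91% to 31.5% of BIRC6.

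AC005632.2, in intron 7 of METTL9, a histidine methyltransferase gene, also rose beside a host whose groups overlapped. With induction it was at 5.32 and 5.09 CPM in S34F cells, against 1.52 and 0.699 in WT and 0.818 and 0.671 in Q157R. Before induction the libraries were at 0.343 and 0.268 (WT), 0.400 (S34F) and 0.582 CPM (Q157R). The difference from induced WT was 2.21 ± 0.41 (log2, SE; edgeR, adjusted p = 0.0458). METTL9 was at 49.9 and 70.3 CPM in induced WT and 55.1 and 59.8 in induced S34F cells, so its groups overlapped. In induced WT cells the row was also the one with the lowest p against uninduced cells (log2 1.88 ± 0.47; edgeR adjusted p = 0.702).

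The largest fold change was in AC005746.1, in the last intron of BCAS3. It met the count minimum only with the help of the induced S34F libraries, so its difference is a description. It rested on few reads, 6 and 2 counts in induced WT and 32 and 37 in induced S34F cells, or 0.149, 0.0736, 1.26 and 1.21 CPM. The log2 difference was 3.36 ± 0.58 (SE). BCAS3 was at 20.3 and 26.9 CPM in induced WT and 38.0 and 36.7 in induced S34F cells (log2 0.66 ± 0.33; edgeR adjusted p = 0.263, 0.03 with the block).

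AC020978.1, in intron 3 of the arginine methyltransferase gene PRMT7, was at 0.398 and 0.221 CPM in induced WT, 2.56 and 2.07 in induced S34F and 0.669 and 0.459 in induced Q157R cells (16, 6, 65, 63, 18 and 13 counts). It was 0.315 CPM in uninduced S34F cells, and the 8 libraries other than induced S34F were all at or below 0.669 CPM. The difference from induced WT was 2.85 ± 0.44 (log2, SE; edgeR, adjusted p = 0.0444), and PRMT7 differed by 0.62 ± 0.22. Per kilobase the row went from 28.6% to 139% of its host.

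The remaining called rows had hosts that were also somewhat higher. AC073569.3, in intron 11 of PPP1R12A, the targeting subunit of myosin phosphatase, was at 1.84 and 1.62 CPM in induced WT and 6.58 and 5.12 in induced S34F cells (log2 1.75 ± 0.33; edgeR adjusted p = 0.0458), and PPP1R12A differed by 0.37 ± 0.15. AL031666.3, in intron 5 of the chromatin reader gene ZMYND8 and ending 64 bases before the end of that intron, was at 1.47 and 1.58 CPM in induced WT and 4.73 and 4.56 in induced S34F cells (log2 1.61 ± 0.28; edgeR adjusted p = 0.0449). Its uninduced levels, 2.06, 1.98, 2.52 and 2.58 CPM in WT, WT, S34F and Q157R cells, were above those of induced WT cells. ZMYND8 differed by 0.42 ± 0.15.

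**Figure D2:**
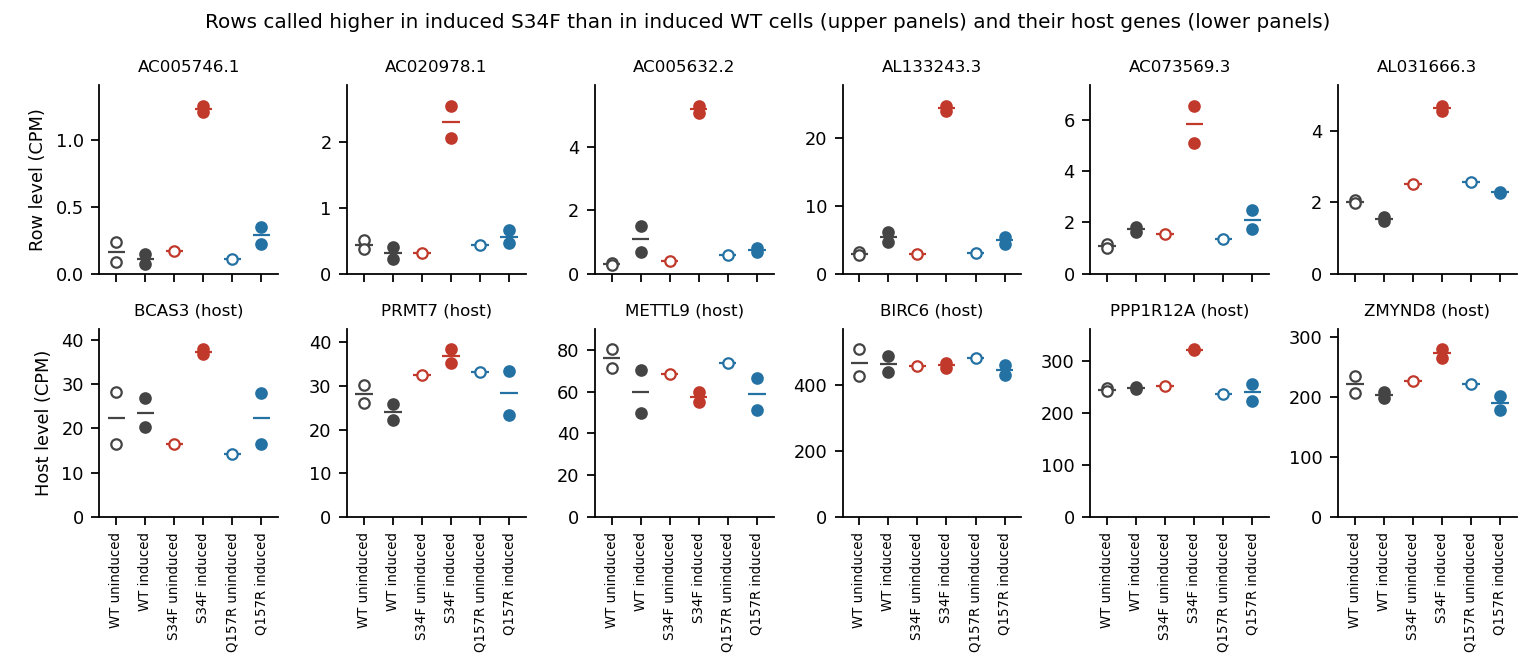
Levels in CPM (linear axes from 0) of the 6 rows called higher in induced S34F than in induced WT cells (upper panels) and of their host genes (lower panels), 1 point per RNA-seq library, with group means as short lines. In each upper panel both induced S34F points lie above the other 8 libraries, while BIRC6 and METTL9 show no such separation.

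Among the rows that the block added were 3 very low ones that met the count minimum only with the help of the induced S34F libraries, so their differences are a description. AP003471.1, in DPYS, a pyrimidine degradation gene, had 10 and 1 counts in induced WT and 40 and 27 in induced S34F cells, and DPYS itself went from 1.57 and 0.331 to 10.5 and 3.94 CPM. AC022150.2, in the zinc finger gene ZNF83, had 3 and 2 counts in induced WT and 13 and 16 in induced S34F cells, and AL158835.2 had 4 and 2 against 15 and 13.

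With the block 2 rows were called lower, and each was also called with no filter on low counts. AC011726.3, in the last intron of BNIP3L, a mitophagy receptor gene needed in red cell maturation, was at 0.498 and 0.993 CPM in induced WT and 0.118 and 0.230 in induced S34F cells (20, 27, 3 and 7 counts), while BNIP3L was at 135 and 211 and at 228 and 279 CPM. The row differed by -2.09 ± 0.68 (log2, SE; edgeR with the block, adjusted p = 0.0473; 0.0207 to 0.578 over the settings tried). AC092718.4, in the centromere protein gene CENPN, was at 13.2 and 6.66 CPM in induced WT and 5.00 and 4.76 in induced S34F cells (log2 -0.98 ± 0.25; edgeR with the block, adjusted p = 0.0161; 0.0161 to 0.437 over the settings). CENPN was lower as well, at 40.0 and 21.9 against 23.6 and 17.6 CPM.

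The hosts had no such shift in their median. Of 357 hosts tested, edgeR called 2 higher and 4 lower, beside 0.681% and 0.991% of all rows, or 1.67% in either direction. The median log2 fold change of the hosts was -0.03. Of the 405 rows with a tested host, 184 were above 0 together with it, 167 were above 0 while the host was below, 42 were below 0 with the host and 12 were below while the host was above. Across these pairs, row and host fold changes had a low correlation (Pearson 0.366, Spearman 0.333, n = 405, as a description; the 2 values of a pair come from the same libraries). Rows whose host was above 0 had a median of 0.85 and those whose host was below 0 one of 0.50.

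When each row was set against its own host in the same library, the difference between induced S34F and WT cells had a median of 0.67 (log2) over 405 sense-intronic pairs and of 0.58 over 1414 other rows nested in an intron. limma called 17 sense-intronic rows higher relative to their host and 1 lower, beside 3.41% and 0.33% of all 1819 nested rows and 3.74% in either direction. These are 4.2% and 0.247% of the 405, close to the background. With the block the counts were 88 and 2, beside 16.1% and 1.48%, or 17.5% in either direction. These pairs include rows that met the count minimum only with the help of the induced S34F libraries, and their number among the calls was not counted. Without such rows the median against the host was 0.66 (367 pairs).

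The largest of these gains came with a host that was not called higher. AC009163.3, in TMEM170A, was at 0.324 and 0.110 CPM in induced WT and 1.02 and 1.31 in induced S34F cells, and against its host it differed by 2.55 ± 0.52 (log2, SE; limma, adjusted p = 0.0203). AC090164.2, in the proprotein convertase gene PCSK6, was at 0.672 and 0.442 against 1.69 and 1.48 CPM while PCSK6 was at 16.2 and 23.3 against 8.82 and 12.6, a relative gain of 2.32 ± 0.47 (limma, adjusted p = 0.0202). AC005632.2 gained 2.30 ± 0.49 over METTL9 (limma, adjusted p = 0.0222). INE1, a noncoding gene in UBA1, the gene of the main ubiquitin-activating enzyme, was at 1.64 and 0.846 against 4.96 and 3.71 CPM, with UBA1 at 220 and 218 against 153 and 164. Its relative gain was 2.27 ± 0.42 (limma, adjusted p = 0.00999). In place of the 18 calls in either direction, limma made 0 without induced S34F replicate 1, 1 without induced S34F replicate 2, 3 without induced WT replicate 2 and 16 without induced WT replicate 1.

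The single relative loss was AC011726.3, which differed by -2.24 ± 0.47 against BNIP3L (log2, SE; limma, adjusted p = 0.0207). A further pair, chosen after its values were seen, lies in U2AF2, the partner subunit of U2AF1. AC008735.1, in its last intron, was at 1.20 and 0.736 CPM in induced WT and 1.89 and 2.495 in induced S34F cells, while U2AF2 went from 378 and 278 to 218 and 161 CPM. Against its host the row gained 1.95 ± 0.44 (limma, adjusted p = 0.0282).

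**Figure D3:**
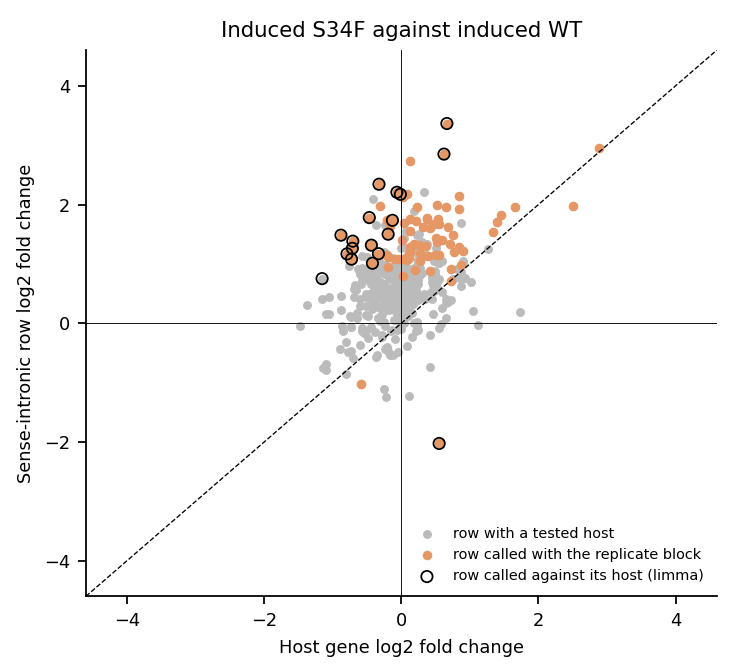
Log2 fold change of each sense-intronic row (vertical axis) against that of its host gene (horizontal axis), induced S34F against induced WT, for 405 rows with a tested host; the dashed line marks equal change. Most points lie above 0 and above the dashed line on both sides of the host axis, and AC011726.3 is the circled point far below.

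Between induced Q157R and induced WT cells, no row was called. The median over 436 rows was 0.18 (-0.01 over all rows), and 280 rows, or 64.2%, were above 0, beside 48.5% of all rows. edgeR called 0 rows (0% of all rows), with 0 under the block (0.0188% of all rows in either direction, all lower) and 0 by DESeq2, and 25 rows had an unadjusted p below 0.05, or 5.73% beside 3.36% of all rows. The rows with the lowest p were AC103702.1, in HOXB3, a homeobox gene, at 0.224 and 0.626 CPM in induced WT and 1.38 and 1.48 in induced Q157R cells, and AC009163.3, in TMEM170A, at 0.324 and 0.110 against 1.08 and 0.671 CPM. Against their hosts, the rows differed by a median of 0.16, beside 0.14 over the 1414 other nested rows. There limma called 0 sense-intronic rows and 0% of all 1819 nested rows.

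Most rows were also higher in induced S34F than in induced Q157R cells. The median was 0.52 and 345 of 436 rows were above 0. edgeR called AL133243.3 (2.32 ± 0.26, log2, SE; adjusted p = 0.0385) and AC005632.2 (2.80 ± 0.43; adjusted p = 0.0495) higher in S34F cells and 0 lower, beside 0.3% and 0.258% of all rows, or 0.559% in either direction. These calls were lost when any 1 of the 4 libraries was left out. Both induced S34F libraries stood above both induced Q157R libraries in 215 rows, beside 27.8% of all rows, and below them in 24, beside 25.5%. With the block edgeR called 58 higher and 3 lower, beside 8.49% and 11.5%, or 20% in either direction. Some of the 58, as AP003471.1, AC022150.2 and AC012186.2, met the count minimum only with the help of the induced S34F libraries. How many of the 58, of the 215 and of the 345 did so was not counted. The 3 lower ones were AC011726.3, AC120498.2 and AL031429.2, the last at 1.77 and 1.84 CPM in induced S34F and 5.57 and 5.05 in induced Q157R cells, inside the prostaglandin receptor gene PTGER3, whose own level was 130 and 158 against 396 and 387 CPM. Against their hosts, limma called 8 rows higher in S34F and 1 lower, beside 1.21% and 0.275% of nested rows. With the block limma called 45 higher and 3 lower, beside 8.58% and 1.32% of nested rows, or 9.9% in either direction. The comparisons of S34F with WT and with Q157R share the induced S34F libraries, and those of S34F and Q157R with WT share the induced WT libraries.

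Single rows were not called after induction of WT or Q157R, nor between the lines without induction. In each of these comparisons edgeR without the block called 0% of all 21300 rows. With the block it called 0.263% of all rows, and 0 sense-intronic ones, after induction of Q157R. In WT cells, induction gave a median of 0.20 (0.01 over all rows), and edgeR called 0 rows, with 25 at an unadjusted p below 0.05 (5.73%, beside 6.40% of all rows), 0 under the block (0.418% of all rows) and 0 by DESeq2. In Q157R cells, with 1 uninduced library, the median was 0.30, and 0 rows were called, with 21 at an unadjusted p below 0.05 (4.82%, beside 8.86% of all rows) and 0 by DESeq2. Without induction, S34F and Q157R cells differed from WT by medians of 0.12 and 0.09, and edgeR called 0 rows in either (7 and 6 at an unadjusted p below 0.05, or 1.61% and 1.38% beside 0.859% and 1.10% of all rows; DESeq2 called 0 in either).

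In S34F cells induction gave a median of 0.77, with 357 of 436 rows above 0. edgeR called 3 higher and 0 lower, beside 0.704% and 1.26% of all rows, or 1.96% in either direction: AC005632.2 (3.69 ± 0.60, log2, SE; adjusted p = 0.038), AL133243.3 (3.11 ± 0.36; adjusted p = 0.034) and Z83843.1 (1.98 ± 0.37; adjusted p = 0.0451). Z83843.1 lies in FTX, a noncoding gene of the X inactivation center, and was at 4.26 CPM in the uninduced and 15.9 and 17.8 in the induced S34F libraries, while FTX was at 18.2, 64.6 and 70.1 CPM. FTX was itself called higher (log2 1.89; edgeR adjusted p = 0.034), while BIRC6 and METTL9 were not called. With the block, 44 rows were called higher and 3 lower, beside 8.23% and 11% of all rows, or 19.2% in either direction. Some of the 44, as AP003471.1, met the count minimum only with the help of the induced S34F libraries. How many of the 44 and of the 357 did so was not counted. With only 1 uninduced S34F library, 0 rows were called when either induced library was left out.

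Between the inductions of S34F and WT cells the median difference was 0.57 (log2), and edgeR called 0 single rows for that difference (33 at an unadjusted p below 0.05, or 7.57% beside 8.19% of all rows). Without the block it called 0% of all rows for this difference, and 0% for that of the Q157R and WT inductions. With the block it called AC020978.1 and AL133243.3 higher, beside 0.15% of all rows called higher and 0.704% in either direction. For Q157R the median difference between the inductions was 0.09, and 0 rows were called, with 6 at an unadjusted p below 0.05 (1.38%, beside 1.23% of all rows).

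**Figure D4:**
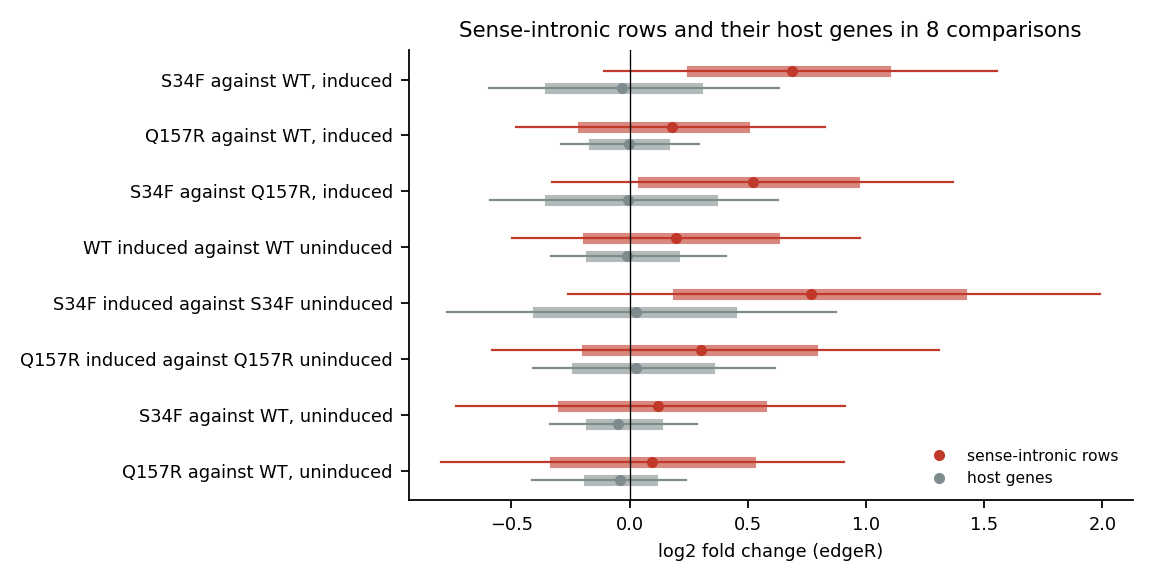
Log2 fold changes of sense-intronic rows (red) and of their host genes (grey) in 8 comparisons; points are medians, thick bars the middle 50 percent and thin lines the 10th to 90th percentiles. The rows are shifted to the right of their hosts most in the comparisons with induced S34F cells, with medians of 0.69, 0.52 and 0.77.

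Intron RNA is destroyed by the lariat debranching enzyme DBR1, the exonuclease XRN2, and the nuclear exosome with its adaptors, and the cap-binding complex links many nuclear transcripts to that machinery. Of 31 genes listed for intron RNA turnover, 23 were below 0 in induced S34F against WT cells, with a median log2 fold change of -0.29. Over all protein-coding genes the median was -0.16, and 38.7% of them were above 0. edgeR called 2, both lower, beside 1.67% of all rows called in either direction. With the block it called 9 lower and 3 higher, beside 12.9% and 9.56% of all rows. The 3 higher ones were DIS3, ZFC3H1 and NRDE2. They differed by 0.47, 0.47 and 0.55 (log2, edgeR with the block, adjusted p = 0.0317, 0.0182 and 0.0261). XRN2 fell from 123 and 129 CPM to 61.9 and 53.8 (log2 -1.12 ± 0.16, SE; edgeR, adjusted p = 0.0432), and NCBP1, the large cap-binding subunit, fell from 124 and 101 CPM to 51.2 and 44.6 (-1.23 ± 0.24; edgeR, adjusted p = 0.048). The exosome subunit gene EXOSC5 was at 32.5 and 55.0 against 21.7 and 24.6 CPM (-0.91 ± 0.27; edgeR adjusted p = 0.107, 0.00502 with the block), and DBR1 at 34.2 and 24.1 against 21.97 and 19.6 CPM (-0.49 ± 0.25; edgeR adjusted p = 0.275). In induced Q157R cells 0 of the 31 were called, and the median was 0.01. The part of these genes in the levels of sense-intronic rows was not tested.

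CLIP reads on sense-intronic rows were few, and most were counted on rows that an exon on the opposite strand overlaps. In eCLIP and in freCLIP, its form with a light and a heavy fraction, RNA crosslinked to U2AF1 or U2AF2 is recovered with an antibody and sequenced. The 437 rows had 5883 eCLIP counts and 4758 freCLIP counts, and 171 rows had none in any CLIP library. The 29 rows overlapped by an exon on the opposite strand took 68.3% of the eCLIP and 66.6% of the freCLIP counts, but 5.09% of the RNA level in induced WT cells. The 395 rows without exon overlap took 26.3% and 28.5% of these counts and 90.4% of the RNA. The strand setting of the counting is not given in the sources used here, and reads from a row and from a gene on the opposite strand cannot be told apart.

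The 3 rows whose stretches are printed above held 48.9% of the eCLIP and 49.0% of the freCLIP counts, while they ranked 54, 238 and 106 by RNA level. All 3 are overlapped on the opposite strand. AC007390.2, in CEBPZOS, shares 408 of its 3803 bases with exons of CEBPZ, AC084824.4, in the mitochondrial tyrosyl-tRNA synthetase gene YARS2, shares 202 of 731 with the mitochondrial fission gene DNM1L, and AC010326.3, in ZNF814, shares 288 of 679 with AC010326.4. Which bases the CLIP reads cover is not given by counts per row.

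Between the fractions and genotypes, these 3 rows did not move alike. AC007390.2 had 165, 429 and 283 counts per 1000000 gene counts in the light WT libraries, 127, 124 and 105 in light S34F and 156 and 73.7 in light Q157R, so each mutant library was below each WT library. In the heavy fraction its groups overlapped, with 190.5 to 307 in WT, 193 to 237 in S34F and 199.9 and 378 in Q157R. AC010326.3, with the long pyrimidine run, was at 240.5, 249.9 and 179 in light WT, 631, 455 and 209.5 in light S34F and 495 and 140.1 in light Q157R libraries, and these groups overlapped. AC084824.4 was at 177, 164 and 219.8 in light WT, 179.5, 207 and 215 in light S34F and 78.1 and 29.5 in light Q157R libraries. The light Q157R libraries held only 38415 and 135596 gene counts, with 43 and 42 of them on sense-intronic rows. Light S34F replicate 2 and light WT replicate 2 were also small, with 48359 and 78987 gene counts and 77 and 79 on sense-intronic rows. No test was made on these low counts.

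Over all rows, the share of CLIP gene counts on sense-intronic rows was 0.131% ± 0.0131 for U2AF1 eCLIP and 0.114% ± 0.005 for U2AF2 eCLIP (SD, n = 2 each, WT cells). In the light fraction it was 0.112% ± 0.014 in WT (n = 3), 0.146% ± 0.0357 in S34F (n = 3) and 0.112% and 0.0310% in the 2 Q157R libraries, and in the heavy fraction 0.108% ± 0.0106 (n = 4), 0.111% ± 0.0166 (n = 3) and 0.124% ± 0.011 (n = 2). Of these libraries, light Q157R replicate 3, with 42 counts on sense-intronic rows, was the lowest. No test was made on these shares.

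**Figure D5:**
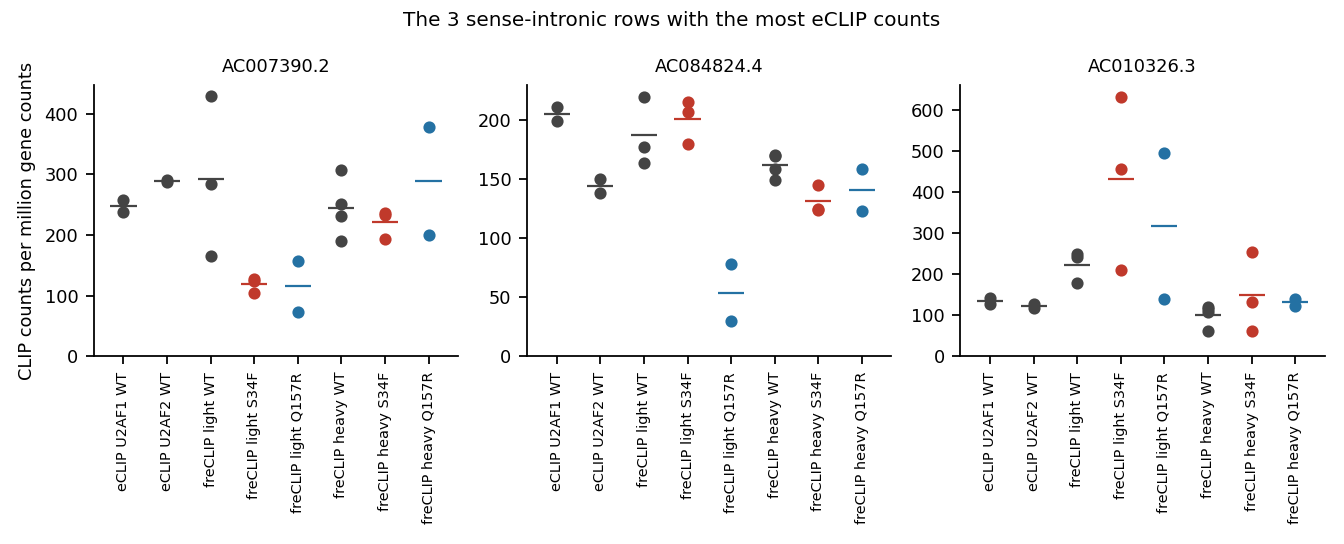
CLIP counts per 1000000 gene counts (linear axes from 0) on the 3 sense-intronic rows with the most eCLIP counts, 1 point per biological replicate, with group means as short lines. In the light fraction AC007390.2 is lower in the S34F and Q157R libraries (73.7 to 156) than in WT (165 to 429), and AC010326.3 is spread widely in S34F (209.5 to 631). These values rest on low counts, and no test was made.

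The cells carried the markers of their label. All 9 erythroid and megakaryocytic genes listed had a median of at least 1 CPM, with a summed level of 2512 to 3996 CPM over the 10 libraries. Of 8 genes of other blood cells 6 had a median below 1 CPM, with MS4A1 at 0 in every library. The other 2 were present, PTPRC at 146 to 289 CPM and LYZ at 20.8 to 50.9, and the list summed to 171 to 339.8 CPM. Of 5 stromal and epithelial genes 3 had a median below 1 CPM, with EPCAM at 0 to 0.0368 CPM, while PECAM1 was at 272 to 515 and KRT8 at 16.8 to 73.7 CPM, and the list summed to 316 to 553 CPM. Their part in the levels of sense-intronic rows was not tested.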

How the data were processed

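RNA-seq (10 libraries, after rRNA depletion), eCLIP (7) and freCLIP (17) were analysed, and 9 further samples (TimeLapse-seq) are not analysed here. The authors deposited raw read counts per gene. Tools listed, without roles, in the submitters' processing notes are HTSeq, HISAT2, STAR (2.7.0f; 2.5.3a), SAMtools, cutadapt, DESeq2 and edgeR, with the build GRCh38.p10, and the annotation release and strand setting are not given in the sources used here. Closing lines for reads that name no gene were left out of library sizes, and unannotated reads (19.0% to 33.7% of RNA-seq reads) are those of the line for reads outside features. IDs without version were matched to GENCODE 29 (58039 rows). A host is a same-strand gene whose span holds the row without shared exon bases, protein-coding and shortest first. The RNA table was fitted whole with edgeR 4.0.16 in R 4.3.3 (TMM, filterByExpr with a minimum count of 10, robust quasi-likelihood test, 1 mean per group, Benjamini-Hochberg over 21300 rows, threshold 0.05). Rows against hosts were tested with limma 3.58.1 on log2 of (row + 2) over (host + 2) counts in 1819 nested rows. A group of 1 library is assumed to vary like the other groups. The series' design text calls replicates biological but names no separate cultures, so p-values measure a spread that may be technical. Same-numbered libraries of different groups deviated together (residual correlation 0.211 to 0.652 over 6 pairs of groups), and the numbers, which the labels give, were used as the replicate block in an alternative fit. DESeq2 1.42.0, other scalings, filters and left-out libraries were further alternatives. Levels are TMM-scaled CPM. For edgeR, the SE given is the absolute log2 fold change over the square root of the test's F statistic, so it derives from the test. Technical eCLIP replicates (3) were added to the biological replicate they belong to. The tests were checked on simulated data. Rows named are the 12 most abundant, the 6 largest called rises and falls per comparison, the 4 largest per direction against hosts and, with no call, the 2 lowest p, of which the text gives those that add to a comparison. The members and lists were chosen with earlier results of these data known. The sequences of 2 further rows are not reported here.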

Additional observations from a re-analysis of the deposited data

Results flagged for a closer look

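For 2 sense-intronic rows the response to doxycycline differed between S34F and WT cells in edgeR with the replicate number as a block. AC020978.1, inside PRMT7, rose by 3.59 more (log2) in S34F than in WT cells (adjusted p = 0.0443 in edgeR with the block, 0.589 without it, 0.0352 to 0.936 over the settings tried). AL133243.3, inside BIRC6, rose by 2.28 more (adjusted p = 0.0327 in edgeR with the block, 0.589 without it, 0.0303 to 0.936 over the settings). In both rows the 2 induced S34F libraries stood above all others, and the contrast uses the single uninduced S34F library. The contrast was added after seeing the data. RNA-seq groups of 2 libraries or fewer are too small to tell whether a library stands apart.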

How the results depend on the processing

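Calls of single rows depended on the fit. The median of the 436 rows in induced S34F against WT cells lay between 0.65 and 0.75 (log2) over the 10 alternative fits. The replicate block (numbers paired as in the methods) moved the called rows from 6 to 85 in S34F against WT, from 2 to 61 in S34F against Q157R, from 3 to 47 for induction in S34F, from 0 to 2 for the difference of the S34F and WT inductions, and against hosts from 18 to 90 and from 9 to 48. It changed no call in the other comparisons. DESeq2 called 20, 11 and 15 rows in the first 3 of these. No filter on low counts gave 41, 27 and 36, with 1 for induction in Q157R and 3 for the difference of inductions. Only the compared groups gave 0, 0 and 55. The shares of all rows called under DESeq2, with no filter and with only the compared groups are not reported here. These counts therefore do not show whether sense-intronic rows were called more often than other rows. All reads as library size gave 1 in S34F against Q157R. Leaving out 1 library gave 0 to 0 called rows in each of these 3 comparisons, and against hosts 0 to 16 in S34F against WT and 0 to 3 in S34F against Q157R. In that last comparison a pseudocount of 0.5 gave 4 and at least 10 counts in every library gave 5. The share of induced S34F over WT was 1.48 times with all reads as denominator, in place of 1.73. With 1 library left out, the S34F against WT log2 difference changed sign in rows that were never called: AC087481.3 (-0.16 to 0.49), SOS1-IT1 (-0.52 to 0.064), MIR600HG (-0.098 to 0.39), AC124312.5 (-0.28 to 0.18), AC037198.1 (-0.49 to 1.90) and ANKRD10-IT1 (-0.25 to 0.30). ANKRD10-IT1 was also at -0.033 with all reads as library size and at -0.018 with no filter. The cause of these changes was not tested. Rows of a few counts, as AC005746.1, limit what this depth can show.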
